A study of Homo sapiens with 2 samples.

Results

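The genes of fatty acid and cholesterol synthesis, with the SREBP factors that regulate them, were compared between FaDu cells stably overexpressing GLUT4 and FaDu cells stably carrying the control vector. A list of 36 genes was used, and 32 of them were measured on 80 probe sets that name only that gene, out of 19775 genes measured in all. The sterol branch held 15 measured genes of 17 and the fatty acid branch 10 of 12, beside 5 regulators and 2 further genes that SREBP factors induce. FADS1, ELOVL1 and CYP51A1 were represented only by probe sets that also name another gene, and FDFT1 was not analysed here. FaDu cells derive from a human pharyngeal squamous carcinoma. Both populations were stably transduced, selected with puromycin and cultured alike, and each gave total RNA for 1 Affymetrix Human Genome U133 Plus array. No replicate was therefore available and no test was made, and GLUT4 itself cannot be told apart from any other difference between the populations. The methods speak of stable clones, and whether a population came from a single clone is not stated. In such bulk RNA, fewer cells of a type and less RNA per cell cannot be told apart.

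Cells make fatty acids and sterols from the same cytosolic acetyl-CoA. In the fatty acid branch acetyl-CoA is carboxylated and built into palmitate, which elongases and desaturases then modify. In the sterol branch it enters the mevalonate pathway, which leads through isoprenoid units to squalene and on to cholesterol. SREBP transcription factors induce genes of both branches. They are held in the endoplasmic reticulum by INSIG proteins when sterols are plentiful and escorted by SCAP to be cleaved and activated when sterols run low. In carcinoma cells both branches supply membranes of dividing cells.

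Most of these genes gave lower values in the GLUT4-overexpressing cells than in the vector control cells, by a small amount, and the sterol branch was lower than the fatty acid branch. Differences are on the log2 scale of the intensity, a brightness after the submitters' normalization, with GLUT4 minus vector, so that values below 0 are lower with GLUT4. For each gene they come from the probe set that was brightest on average, called its main probe set. The median over the 15 sterol genes was -0.32, with 14 below 0. The median over the 10 fatty acid genes was -0.05, with 5 below 0, which leaves a gap of -0.27 between the branches. Over all 19775 genes the median was -0.02, and 52.2% lay below 0. When the probe sets of each gene were averaged, the sterol median was -0.25 and the fatty acid median -0.055, a gap of -0.20. The study's threshold of 1.5-fold was passed by LPIN1 alone on its main probe set, in the lower direction, where 1.54% of all genes were more than 1.5-fold lower. No member was more than 1.5-fold higher, where 1.84% of all genes were.

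**Figure D1:**
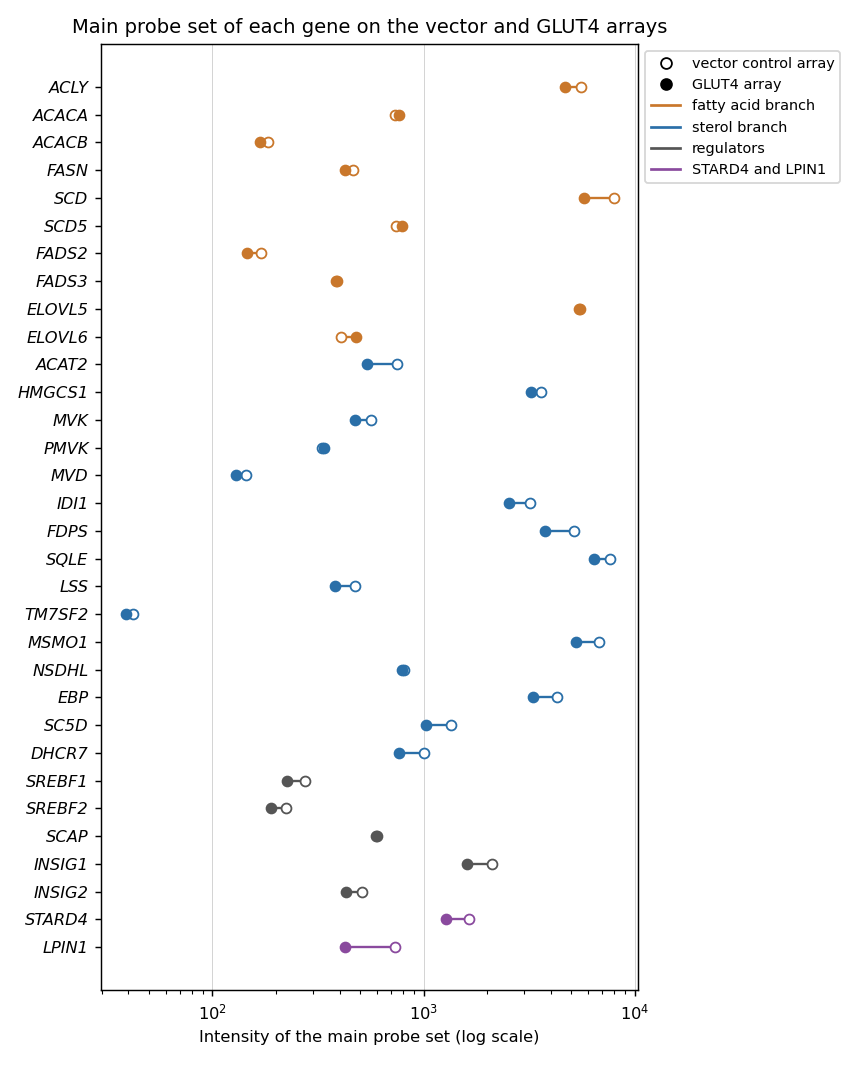
Intensity of the main probe set of each gene on a log axis, with open circles for the vector control array and filled circles for the GLUT4 array. The filled circle lies left of the open circle for 26 of the 32 genes, and LPIN1 has the widest gap, from 734 to 422.

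Differences of this size were set against how far probe sets of a single gene differed on the same pair of arrays. No other spread could be measured here. From 10523 genes carrying 2 or more probe sets, the SD of a single probe set was 0.20 on the log2 scale. It was 0.16 over the 3238 of them whose 2 brightest probe sets had a mean signal in the range of the brightest tercile of genes. It does not cover variation between cultures, nor error that both probe sets share, such as from RNA preparation, labelling or the array. Real differences between the transcripts that probe sets detect also enter it. By that yardstick 19 of the 32 members were lower by more than 0.20 and 1 was higher by more than 0.20. Of all genes, 18.0% were lower and 14.7% higher by that much. As many as 26 members lay in the brightest tercile, where 20 of them were below 0 against 46.9% of the 6592 genes there. In the same tercile 16 of the 26 were lower by more than 0.20, against 14.7% of its genes. The median difference of that tercile was 0.01.

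In the mevalonate arm, 6 of 7 genes were below 0 and 4 were lower by more than 0.20. ACAT2, the cytosolic thiolase that joins acetyl-CoA units, read 751 in vector control cells and 539 in GLUT4-overexpressing cells, a difference of -0.48. FDPS, which makes farnesyl diphosphate, read 5167 and 3757, a difference of -0.46. These are 1.39-fold and 1.38-fold lower, the largest differences of the sterol branch, and each rests on a single probe set. MVK, mevalonate kinase, read 561 and 473 (-0.24). Its next 2 probe sets, at 262 to 195 and 204 to 153.5, were lower by more, at -0.43 and -0.41, while a dim one stayed at 48.6 and 48.7. HMGCS1, the HMG-CoA synthase at the entry to the pathway, read 3590 and 3231 (-0.15) and on its other probe set 1221 and 949 (-0.36). Its main probe set thus lay within the SD of a single probe set, and the other outside. MVD, which decarboxylates mevalonate diphosphate, read 144 and 129 (-0.16), and PMVK, phosphomevalonate kinase, read 330.4 and 337 (0.03).

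IDI1, the isopentenyl diphosphate isomerase, gave opposite answers on its probe sets. The brightest read 3183 and 2545 (-0.32) and the next 3120 and 2497 (-0.32). A dimmer one read 252 and 360 (0.51), and the dimmest 25.5 and 33.4 (0.39). Their mean was 0.07, so the direction of IDI1 depends on which probe sets are used. The names of the 3 brightest end in x_at, a mark of probes that may also bind other transcripts.

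From squalene to cholesterol, all 8 measured genes were below 0 and 6 were lower by more than 0.20. SQLE, squalene epoxidase, read 7637 and 6419 on its main probe set (-0.25), and its further 3 probe sets were also lower, down to -0.38. SC5D, the sterol desaturase near the end of the route, read 1355 and 1023 (-0.40). DHCR7, which carries out the last reduction of one route to cholesterol, read 1009 and 766 (-0.40) and on its other probe set 784 and 626 (-0.32). EBP, the sterol isomerase, read 4298 and 3306 (-0.38) and was lower on all 4 of its probe sets. MSMO1, a methyl oxidase of sterol demethylation, read 6744 and 5253 (-0.36) on its only probe set. Apart from SQLE these enzymes lay close together, from -0.40 to -0.36. Lanosterol synthase, LSS, read 475 and 379 (-0.33), but a much dimmer probe set read 36.3 and 52.4 (0.53) and the dimmest 28.4 and 26.6 (-0.09), and their mean was 0.04. NSDHL, a sterol dehydrogenase, read 810 and 786 (-0.04) and the sterol reductase TM7SF2 41.9 and 38.8 (-0.11), both within the SD of a single probe set.

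**Figure D2:**
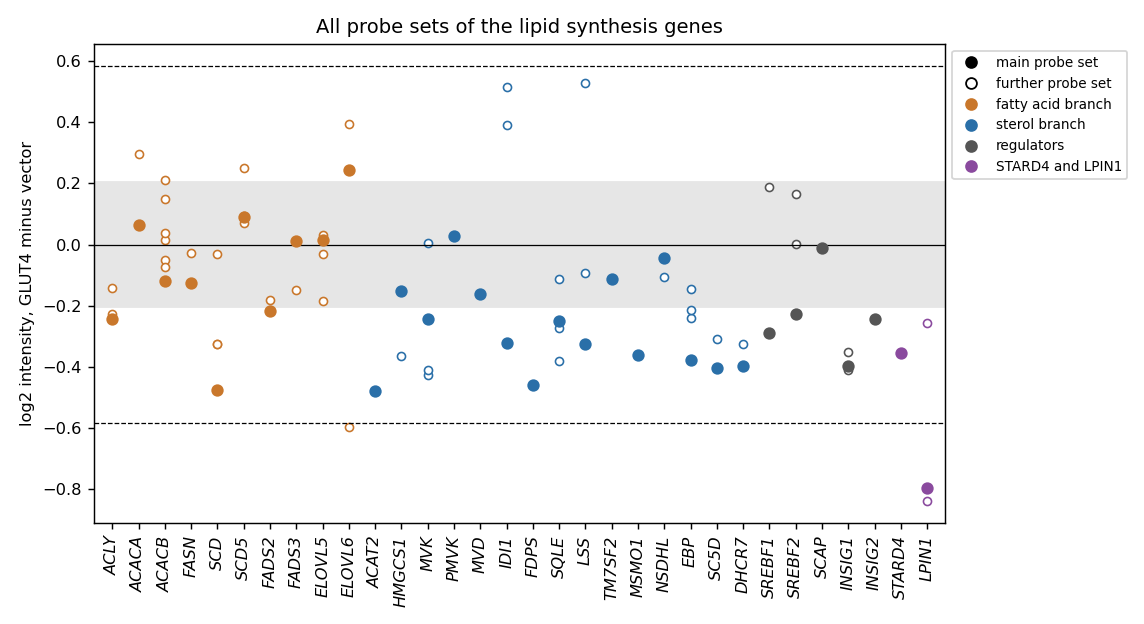
Difference in log2 intensity, GLUT4 minus vector, for all 80 probe sets, by gene, with main probe sets filled and further ones open, dashed lines at 1.5-fold and a grey band at the SD of a single probe set. Of the sterol genes, 10 have their main probe set below the band, and IDI1 and LSS have further probe sets above it.

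In the fatty acid branch the main probe sets lay on both sides of 0. SCD, the stearoyl-CoA desaturase that makes oleate, had the largest difference of the branch and read 7951 and 5724, or 1.39-fold lower (-0.47). Its next probe sets read 1447 and 1156 (-0.32) and 231 and 184 (-0.33), and the last, with a name ending in x_at, 197 and 193 (-0.03). SCD5, its relative, read 739 and 787 (0.09), and none of its 4 probe sets was below 0. ACLY, which splits citrate to supply acetyl-CoA to both branches, read 5558 and 4697 (-0.24) and was lower on all 3 of its probe sets. The enzymes that follow it differed less. ACACA, the acetyl-CoA carboxylase of the cytosol, read 733 and 766 (0.06), and its other probe set was at 0.30. ACACB, the carboxylase at mitochondria, read 183 and 169 (-0.12), and its 7 probe sets, 3 of them below 0, ran from -0.12 to 0.21. FASN, fatty acid synthase, read 462 and 424 (-0.13).

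Among the enzymes of polyunsaturated fatty acids, FADS2 read 170 and 146 (-0.22), FADS3 386 and 389 (0.01) and the elongase ELOVL5 5449 and 5512 (0.02). The other probe set of FADS3 was at -0.15, and 2 of the 4 of ELOVL5 were below 0, down to -0.18, so neither had a direction common to its probe sets. ELOVL6, which lengthens palmitate, was the member with the highest value relative to vector, at 404.5 and 479 (0.24). Its next probe set was also higher, at 165 and 216.5 (0.39), but the dimmest was lower, from 78.2 to 51.7 (-0.60, 1.51-fold), and the mean of the 3 was 0.01. No direction of ELOVL6 is common to its probe sets.

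The ranges of the branches overlapped. Sterol genes ran from -0.48 to 0.03, with quartiles at -0.39 and -0.16, and fatty acid genes from -0.47 to 0.24, with quartiles at -0.20 and 0.05. SCD thus lay among the lowest sterol genes and PMVK between ELOVL5 and ACACA. Of the sterol genes 10 of 15 were lower by more than 0.20 and none was higher by that much, while of the fatty acid genes 3 of 10 were lower and 1 was higher. The gap between the medians was -0.33 without ACLY, -0.23 without ACAT2, and -0.20 with means in place of medians. On all probe sets in place of the main ones, 28 of 33 sterol probe sets and 18 of 33 fatty acid probe sets were below 0, with medians of -0.25 and -0.03.

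**Figure D3:**
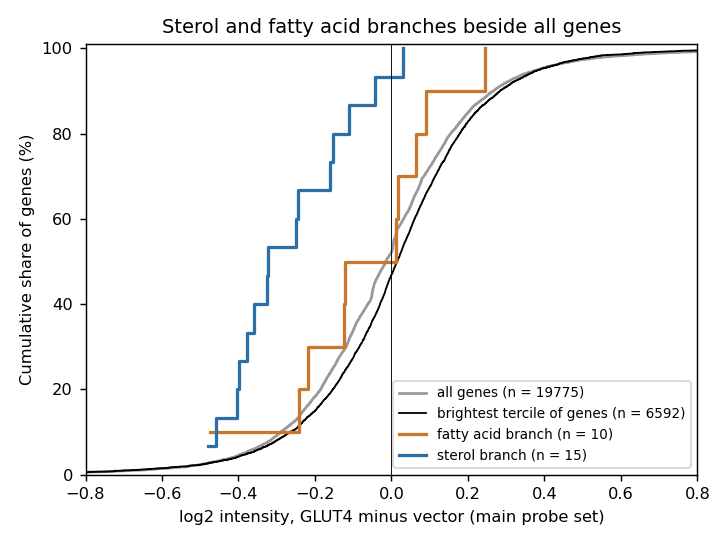
Cumulative share of genes (vertical axis, percent) at or below each difference between GLUT4 and vector (horizontal axis, main probe sets, log2 intensity) for both branches, all genes and the brightest tercile. The sterol curve lies left of all others over most of its length, with its median at -0.32, and the fatty acid curve runs near that of all genes.

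Taken without the main ones, the further probe sets of the sterol genes had a median of -0.23, with 14 of 18 below 0, and those of the fatty acid genes a median of -0.03, with 13 of 23 below 0. Over all genes, further probe sets had a median of -0.01. For the 23 members with at least 2 probe sets, the brightest and the next brightest lay on the same side of 0 in 18 and both below 0 in 14. Their differences correlated across these 23 genes with a Pearson r of 0.69, beside 0.37 over all such genes. These 2 values are not matched for signal, because 26 of the 32 members lay in the brightest tercile. LPIN1 lay furthest from 0 among the 23, at -0.80 and -0.84. All points share the same pair of arrays.

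**Figure D4:**
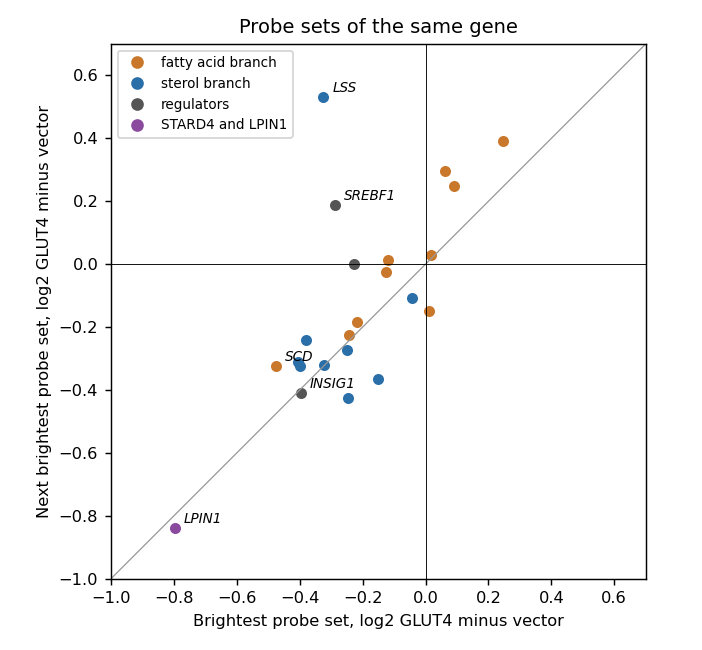
Log2 difference (GLUT4 minus vector) on the brightest probe set of a gene (horizontal axis) against that on its next brightest (vertical axis) for 23 genes, with the grey line marking equal values. Most points lie near the line below 0, and ACACB, FADS3, LSS, SREBF1 and SREBF2 have this pair on opposite sides of 0.

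LPIN1, a phosphatidate phosphatase of glycerolipid synthesis whose gene SREBP factors induce, had the largest difference of all members. It read 734 with vector and 422 with GLUT4, 1.74-fold lower (-0.80), and stood at rank 124 of 19775 genes counted from the most lowered. A second probe set read 414 and 231.5, 1.79-fold lower (-0.84), and the dim one 24.4 and 20.5 (-0.26). All 3 probe sets were thus lower. It did not reach 2-fold on any of them. STARD4, a cytosolic sterol carrier, read 1641 and 1283 (-0.36), close to the late sterol enzymes.

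Among the regulators all 5 main probe sets were below 0, and INSIG1 had the largest difference. INSIG1, which holds SREBP factors back and is itself induced by them, read 2103 and 1598 (-0.40), 1156 and 869 (-0.41) and 660 and 517 (-0.35). All 3 of its probe sets were thus lower by a similar amount. INSIG2 read 511 and 431 (-0.24) on a single probe set. SCAP, the escort protein, was level at 600 and 595 (-0.01). SREBF1, which encodes the factor tied mainly to fatty acid synthesis, read 275 and 225 (-0.29), but its other probe set read 83.1 and 94.7 (0.19). SREBF2, whose factor is tied mainly to sterol synthesis, read 222 and 189.5 (-0.23), then 142 and 142 (0.00) and 52.3 and 58.7 (0.17). Averaged over their probe sets, SREBF1 came to -0.05 and SREBF2 to -0.02, so the arrays give no common direction for the mRNAs of the SREBP factors.

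Because most of these genes were lower together, the bases before their start sites were read from RefSeq (GRCh38.p14), which holds a promoter for 29 of the 32 measured members and none here for FASN, ACAT2 and SQLE. The letters of 3 motifs were searched in the 250 bases before each start, on both strands: TCACNCCAC for the sterol regulatory element, CCAAT for the box that NF-Y binds beside SREBP, and CACGTG for the E-box, which SREBP also binds. The windows below cover the matches in 5 members with a single entry in that table, shown because they include the match to the sterol element and genes that were lower among the regulators, the sterol branch, the fatty acid branch and the further SREBP targets. Capitals mark the matched letters, on either strand, and none of the matches shown overlap.
SREBF2, chr22:41832952-41833023, plus strand: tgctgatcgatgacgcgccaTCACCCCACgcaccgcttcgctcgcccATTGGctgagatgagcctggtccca
INSIG1, chr7:155297688-155297848, plus strand: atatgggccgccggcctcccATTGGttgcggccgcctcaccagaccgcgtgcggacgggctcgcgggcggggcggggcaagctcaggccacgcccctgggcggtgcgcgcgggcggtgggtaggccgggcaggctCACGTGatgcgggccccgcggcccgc
STARD4, chr5:111512641-111512716, minus strand: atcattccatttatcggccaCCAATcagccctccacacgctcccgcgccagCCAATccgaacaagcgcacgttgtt
MSMO1, chr4:165327464-165327659, plus strand: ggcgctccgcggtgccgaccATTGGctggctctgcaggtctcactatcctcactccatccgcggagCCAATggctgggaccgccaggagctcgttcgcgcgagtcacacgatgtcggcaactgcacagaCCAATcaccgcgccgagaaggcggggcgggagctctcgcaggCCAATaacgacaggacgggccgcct
SCD, chr10:100346984-100347071, plus strand: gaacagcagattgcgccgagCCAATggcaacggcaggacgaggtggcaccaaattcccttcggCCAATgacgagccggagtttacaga

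The CCAAT letters stood in 22 of the 29 members, or 75.9%, against 37.0% of 27305 genes with a promoter in the table and 42.4% of the genes in the brightest tercile. A gene with several entries was counted if any of them held the letters. They stood in 12 of 13 sterol genes and 7 of 9 fatty acid genes, so both branches held them. The sterol element was matched in SREBF2 alone, where 1.09% of all genes match, and the E-box in 4 members, or 13.8%, against 7.73% of all genes and 11.9% of those in the brightest tercile. Other spellings of the sterol element were not searched. Members with and without the CCAAT letters had medians of -0.24 (22 genes) and -0.22 (7 genes), and LPIN1 was among those without. A match is a description of the letters and not of binding.

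Around these pathways, 9 lists with 67 measured genes of 75 were described in the same way. The isoprenoid side branches, which take intermediates of the mevalonate pathway to dolichol, ubiquinone and prenylated proteins, differed from the sterol branch in direction. Of their 10 genes, 8 were above 0 and 5 were higher by more than 0.20, where 14.7% of all genes were. The median was 0.20, or 0.15 with averaged probe sets. PDSS2, at 0.19, was below 0 on 2 of its 4 probe sets, with a mean of -0.05. DHDDS, a subunit of the enzyme that builds dolichol, read 142 and 182 (0.36), PDSS1, which makes the ubiquinone tail, 377 and 465 (0.30), and COQ2, which attaches it, 621 and 735 (0.24). The other probe set of PDSS1 was at -0.24, and those of DHDDS and COQ2 were also above 0. None of the 10 genes passed 1.5-fold.

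On main probe sets, genes of cholesterol uptake, transport and esterification were below 0 in 8 of 8, where 52.2% of all genes were. Their median was -0.17, or -0.12 with averaged probe sets. SOAT1, at -0.21, was below 0 on 1 of its 3 probe sets, with a mean of 0.09. VLDLR was dim, at 11.9 and 10.8. LRP8, a lipoprotein receptor, read 357 and 275 (-0.38), LIPA, the lysosomal acid lipase, 3047 and 2474 (-0.30), and NPC1, which exports cholesterol from lysosomes, 2164 and 1787 (-0.28). LRP8 was lower on all 3 of its probe sets, whereas LIPA and NPC1 each had probe sets above 0, up to 0.26 and 0.13. Of 5 genes of LXR signalling and efflux, 3 were below 0, with a median of -0.16 that turned to 0.09 without probe sets ending in x_at or s_at and to 0.01 with averaged probe sets. The efflux transporter ABCG1 read 340 and 260 (-0.39), and was below 0 on all 4 of its probe sets. MYLIP, a ligase that LXR induces, read 319 and 275 (-0.21), with its 6 probe sets running from -0.28 to 1.25, and ABCA1, an efflux transporter, 102 and 91.6 (-0.16). Of 7 genes that cleave SREBP factors or act in sterol-regulated degradation, RNF139, an endoplasmic reticulum ligase, was higher at 2641 and 3703 (0.49), ERLIN2 was at 0.15 and ERLIN1 at -0.10. The proteases MBTPS1 and MBTPS2, which cut SREBP factors, were at 0.00 and -0.04.

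Lists around fatty acids held a few genes past 1.5-fold, all lower, where 1.54% of all genes were more than 1.5-fold lower. PPARA, a factor that induces fatty acid oxidation, read 186 and 114 (-0.70) and CPT1A, the carnitine transferase that lets fatty acids into mitochondria, 66.5 and 43.0 (-0.63), while CPT2 was at 0.29. The 9 probe sets of PPARA ran from -0.71 to 0.37 and the 4 of CPT1A from -0.63 to 0.14. The median over 10 genes of oxidation was -0.04. ACSL5, an acyl-CoA synthetase, read 120 and 78.2 (-0.62), beside ACSL4 at -0.11 and ACSL1 at -0.04. ACSL4 was below 0 on 1 of its 3 probe sets, and their mean was 0.17. DGAT2, which completes triglycerides, read 168 and 111 (-0.60), but its counterpart DGAT1 read 93.6 and 116 (0.31) and GPAM, which starts glycerolipid synthesis, 366 and 458 (0.33). The 8 glycerolipid genes had a median of 0.11. With 32 added to every intensity none of PPARA, CPT1A, ACSL5 and DGAT2 passed 1.5-fold, and with equal array medians DGAT2 did not. ACSL5 was more than 1.5-fold lower on both of its probe sets, with a mean of -0.66. Leaving out probe sets ending in x_at or s_at removed ACSL5, leaving 3 of 4 acyl-CoA synthetases and 5 of 8 glycerolipid genes. Of those left, 0 of 3 and 0 of 5 were more than 1.5-fold lower. Of the 10 oxidation genes 2 still were. Averaged over their probe sets, PPARA was at -0.18, CPT1A at -0.28 and DGAT2 at -0.52, all within 1.5-fold. Among 7 genes that supply acetyl-CoA and NADPH, the median was -0.14. ACSS2, an acetyl-CoA synthetase that SREBP factors induce, read 423 and 293 (-0.53) on its single probe set. ME1 was at -0.21 and the pyruvate carrier MPC1 at 0.37, with the other probe set of MPC1 at 0.01. The 8 genes of the elongation cycle and other elongases had a median of -0.09, with ELOVL7 at -0.24, HSD17B12 at -0.14 and HACD3 at -0.12. HSD17B12 was below 0 on 2 of its 4 probe sets, and their mean was 0.01.

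**Figure D5:**
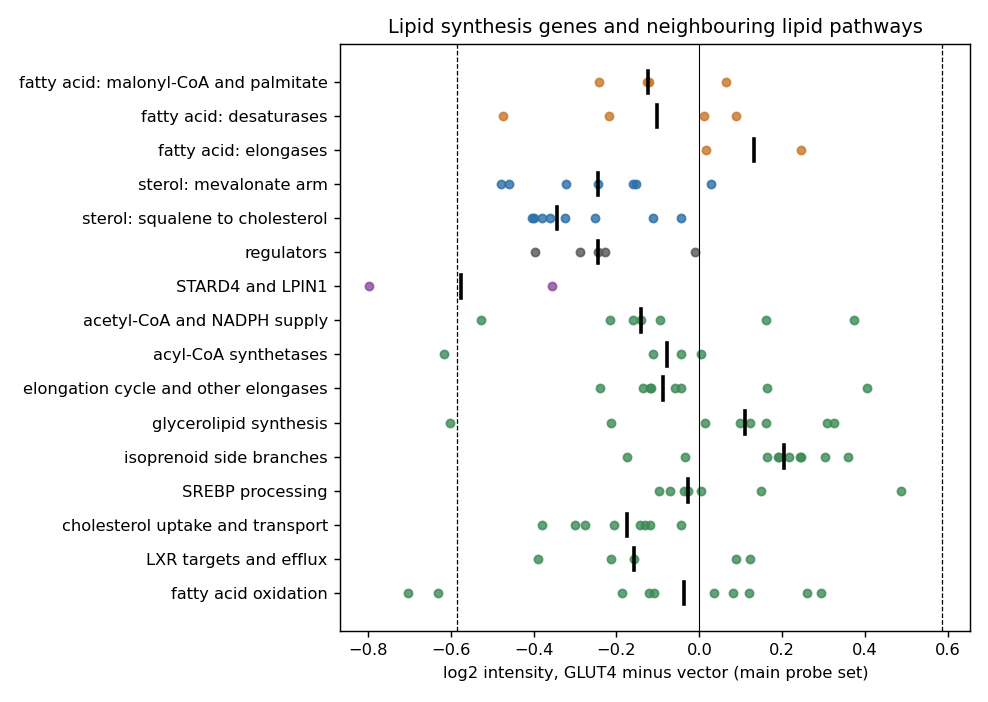
Log2 difference (GLUT4 minus vector) of each gene on its main probe set, by list, with black bars for list medians and dashed lines at 1.5-fold. The lists of sterol synthesis and of cholesterol uptake and transport lie mostly below 0, and 8 of 10 genes of the isoprenoid side branches lie above.

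Markers bear on the identity of the cells. The 6 measured squamous epithelial markers were all above the median signal of probe sets, at 434 to 11921 with vector and 429 to 13093 with GLUT4, and KRT14 was 2.03-fold higher with GLUT4, while CDH1 was 1.45-fold lower. Of 6 adipocyte markers, which would mark a lipogenic cell type, the summed intensity was 169 and 155, with ADIPOQ at 6.81 and 8.39. The sum over 5 leukocyte markers was 88.4 and 90.15, none of them above the median signal. That over 5 hepatocyte markers was 1318 and 1221, most of it SERPINA1, with ALB at 11.6 and 9.36. FGB, a dim hepatocyte marker, read 20.5 and 33.4, 1.63-fold higher with GLUT4. Over 6 fibroblast markers the sum was 834 and 1459, with DCN at 482 and 1050 and LUM at 38.5 and 79.9. COL1A1 was level on its main probe set, at 224 and 226, but its 5 probe sets ran from -0.12 to 1.07. The part of these differences in the results above was not tested. SLC2A4, the gene of GLUT4, read 28.3 and 32.6, and whether its probe set detects the introduced sequence is not known, so it does not check the labels.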

How the data were processed

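The authors labelled total RNA with a 3′ IVT kit and, per their methods, normalized log2 values in GeneSpring. MAS5 is named, with no version, in the submitters' processing notes, and the sources used here do not say how both were combined. The deposited values are intensities on a linear scale with the same maximum of 25994.7 on both arrays, normalized before deposit. No detection calls were used, and the number of arrays limits the precision.

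Values under 1 were raised to 1 before log2 was taken, and differences are GLUT4 minus vector. The platform annotation gives 41097 of 54675 probe sets a single gene, 1801 several genes and 11777 no gene here, and only the first kind was used. The brightest probe set on average stood for its gene. The SD of a single probe set was the SD of the difference between the brightest probe sets of a gene, 0.29, divided by the square root of 2. The members and lists were chosen with earlier results of these data known. The rule for naming genes took all members, with further probe sets where any passed 1.5-fold or where they lay on opposite sides of 0 and more than 0.29 apart, and up to 3 genes of each neighbouring list by size of difference above the median signal. Further probe sets of other genes, MBTPS1 and MBTPS2, the comparison with the SD of a single probe set and the promoter motifs were added after values were seen. Alternatives covered array scaling (equal medians, quantiles, or loess with fraction 0.3), 32 added to each value, dim genes left out, probe sets ending in x_at or s_at left out, averaged probe sets, ACLY or ACAT2 left out and a threshold of 2-fold. The procedure was tested on simulated data. Computation used pandas 2.3.3, numpy 2.4.6 and statsmodels 0.14.6 under Python 3.11.15, with matplotlib 3.10.9 for plots.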

Additional observations from a re-analysis of the deposited data

How the results depend on the processing

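The sterol median stayed below the fatty acid median under every alternative run, with a gap between -0.33 and -0.18. That of -0.18 came from adding FADS1, ELOVL1 and CYP51A1 through probe sets that also name another gene, an alternative chosen after seeing the data. Scaling by medians, quantile normalization, loess and the offset left the counts and medians of the members and branches within their tolerance, which for medians was the standard error that the SD of a single probe set gives and for counts 1.5 times. The signal filter removed none of the 32 members and so could not change their values. Averaging all probe sets moved the median of all members to -0.18 and that of the sterol branch to -0.25, and left 1 in place of 3 fatty acid genes lower by more than 0.20. Without probe sets ending in x_at or s_at, 24 members were left, with 10 of 15 sterol genes and 7 of 10 fatty acid genes. The sterol median was -0.25, and 0 of the 7 fatty acid genes were lower by more than 0.20. SCD, ACLY, ACAT2 and DHCR7 were among the genes that dropped out. IDI1 was read on its dimmest probe set (0.39) and FADS2 on its dimmer one (-0.18). On the next brightest probe set, an alternative chosen after seeing the data, 15 of 23 members were below 0, 11 were lower by more than 0.20 and the median was -0.18. At 2-fold, 0 members were lower. The median of the LXR list turned to 0.0873 without probe sets ending in x_at or s_at and to 0.0097 with averaged probe sets. With the offset of 32, ACSL5, DGAT2, CPT1A and PPARA were within 1.5-fold, as were DGAT2, CPT1A and PPARA with averaged probe sets. Without probe sets ending in x_at or s_at, 3 of 4 acyl-CoA synthetases and 5 of 8 glycerolipid genes were left, and ACSL5 was not among them. Of those left, 0 of 3 and 0 of 5 were more than 1.5-fold lower. In that setting genes dropped out or were read on another probe set. The cause of the other moves was not tested. No paired analysis was possible because each group had 1 array.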
